A study of Mus musculus with 6 samples.

Results

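Chromosome 2 of the mouse genome (GRCm38) was followed as a block of expressed loci in N2a cells with and without Nlk, the gene of Nemo-like kinase. A locus was a member if it lay on chromosome 2 and averaged 0.5 FPKM or more over the 6 libraries, where FPKM is a count of fragments scaled for transcript length and library size. This took in 1042 of the 12667 loci at or above that level on any chromosome, out of 2226 chromosome 2 loci and 26657 loci in all. The chromosome was singled out because its loci as a whole were higher in Nlk-KO than in WT cells, so that shift, the calls it produces and the log2 fold changes below are a description of what was selected and not a test of it. Just below the limit lay Notch1, the Notch receptor, with 0.329, 0.264 and 0.264 FPKM in the WT libraries and 0.697, 0.733 and 0.687 FPKM in the Nlk-KO libraries, and a locus with no symbol at a mean of 0.497 FPKM. Just above it lay D330023K18Rik and the joint locus of 0610010B08Rik and Gm14434, at means of 0.504 and 0.508 FPKM.

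N2a is a polyploid mouse neuroblastoma line. The labels name no treatment. There were 3 libraries labelled wild-type and 3 from isogenic cells in which CRISPR with Cas9 had disrupted Nlk, and the labels call the libraries of a group biological replicates. The knockout cells had been grown from single cells as clones and chosen by loss of Nlk protein, and several clones were used in the study, but no source used here says which clone a library came from. The spread between the libraries of a group may therefore be technical. Values of single libraries are given in the order of replicates 1, 2 and 3.

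Mouse chromosome 2 is one of the largest of the genome and carries genes of nearly every kind: housekeeping enzymes, the HoxD homeobox cluster, the imprinted domain around Gnas, and genes of the sympathetic neuron lineage such as Dbh. In mammalian cells each gene is driven mainly by its own promoter and enhancers, so expressed genes that lie side by side need not change together. The CArG box, a short A/T-rich element with CC at one end and GG at the other, is the site bound by serum response factor, which drives many genes of the actin and smooth muscle cytoskeleton. Myl9, a myosin light chain of smooth muscle and nonmuscle cells, and Dbh, dopamine beta-hydroxylase, which turns dopamine into noradrenaline, were the highest and the lowest of the well expressed single-gene loci relative to WT.

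Their promoters are shown to set this highest and this lowest locus beside each other. Those of Rsu1, the Ras suppressor found in focal adhesions, and 5430417L22Rik (Inafm2 in RefSeq), both also among the 12 highest, were picked for their CArG box. With Myl9 they were the only genes of the 12 highest found with this box. Spint1, Eng, Dstn and Tshz2 rose more than Rsu1, and their promoters are not shown. Each promoter shown runs from 250 bases before the RefSeq start site to 50 bases after it on GRCm38.p6. Capitals mark matches to the CArG box and to CCAAT or its reverse complement ATTGG.
Myl9, chr2:156775214-156775513, plus strand: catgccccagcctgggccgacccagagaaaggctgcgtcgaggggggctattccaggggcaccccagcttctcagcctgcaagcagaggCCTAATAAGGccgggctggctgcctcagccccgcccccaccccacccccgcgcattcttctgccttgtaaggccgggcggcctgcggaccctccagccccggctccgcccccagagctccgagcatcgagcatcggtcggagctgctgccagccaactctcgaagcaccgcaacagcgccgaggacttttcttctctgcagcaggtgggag
Rsu1, chr2:13271366-13271665, minus strand: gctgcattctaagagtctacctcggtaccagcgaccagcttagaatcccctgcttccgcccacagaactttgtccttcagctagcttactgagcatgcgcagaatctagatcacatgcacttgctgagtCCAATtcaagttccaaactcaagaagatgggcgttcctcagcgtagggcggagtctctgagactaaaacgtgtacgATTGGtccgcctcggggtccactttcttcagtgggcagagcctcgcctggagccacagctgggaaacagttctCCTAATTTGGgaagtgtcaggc
5430417L22Rik, chr2:118745508-118745807, plus strand: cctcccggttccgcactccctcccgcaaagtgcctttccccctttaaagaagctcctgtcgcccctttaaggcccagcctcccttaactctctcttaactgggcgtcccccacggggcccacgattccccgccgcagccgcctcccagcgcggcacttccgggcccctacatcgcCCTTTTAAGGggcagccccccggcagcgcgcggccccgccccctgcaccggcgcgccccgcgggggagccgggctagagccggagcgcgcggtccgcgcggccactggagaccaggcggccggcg
Dbh, chr2:27165257-27165556, plus strand: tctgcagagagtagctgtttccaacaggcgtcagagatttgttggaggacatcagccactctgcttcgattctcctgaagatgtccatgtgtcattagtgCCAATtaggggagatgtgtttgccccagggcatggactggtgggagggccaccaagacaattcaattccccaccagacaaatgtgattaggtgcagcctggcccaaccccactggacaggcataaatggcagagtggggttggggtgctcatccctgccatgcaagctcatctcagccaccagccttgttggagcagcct

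A RefSeq promoter was found for 816 of the 932 members with a single symbol. The CArG box was present in 8 of these 816 promoters, or 0.980%, against 1.35% of the promoters of expressed loci on other chromosomes and 1.57% of all 27025 promoters of the table, searched on both strands. The 8 genes were Rnd3, Ckap2l, Top1, Ckap5, Lgr4, 5430417L22Rik, Rsu1 and Myl9, with log2 fold changes of -0.09, 0.13, 0.17, 0.24, 0.35, 0.96, 1.04 and 3.58 in that order. The box starts 161 bases before the start site in Myl9, 75 bases before it in 5430417L22Rik and 28 bases after it in Rsu1. CCAAT or ATTGG was present in 37.5% of the members' promoters and in 39.8% of those of expressed loci on other chromosomes, with a match 150 bases before the start site in Dbh and matches 121 and 45 bases before it in Rsu1. Median GC content was 61.3% both in the members' promoters and in those of other expressed loci, with a median of 21 and 22 CpG dinucleotides. The Dbh promoter held 2 CpG and the 5430417L22Rik promoter 35. These features were not tested between chromosomes.

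Of the 1042 members, 919 were protein-coding, 31 lncRNA, 7 miRNA and 76 without a symbol. In 280 of them the coordinates were shared with another member, so fragments there may have been divided between overlapping genes. The files give FPKM and not counts, and total reads per library are unknown. The lowest values are multiples of a single read's worth, and from these steps depths were between 0.971 and 1.28 times that of WT replicate 1, with 11441 to 11608 loci at 1 FPKM or more in each library. Nlk, on chromosome 11, had 15.8, 16.6 and 16.1 FPKM in WT cells against 6.78, 7.01 and 6.83 FPKM in Nlk-KO cells (log2 fold change -1.22, standard error 0.037). Of 8 neuroblastoma and sympathoadrenal markers 7 were expressed, and all 6 neuron markers were. The neuron markers summed to 1240 to 1326 FPKM in WT and 983.3 to 1014 FPKM in Nlk-KO libraries. Gap43, Uchl1 and Elavl4 were lower and Map2 and Stmn2 higher in every Nlk-KO library, and Tubb3 overlapped between genotypes. Epithelial markers were near 0 and astrocyte markers at or near 0 except for 0.437 FPKM of Gfap and 0.162 FPKM of Aqp4 in Nlk-KO replicate 2. Of 3 immune markers Cd68 was at 344.7 to 403.6 FPKM in every library, with Ptprc and Aif1 near 0, and of 2 endothelial markers Pecam1 was at 0.995 to 1.95 FPKM, with Cdh5 near 0.

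Loci of chromosome 2 were higher in Nlk-KO cells by a small amount. The median log2 fold change over the 1042 members was 0.189, which is 14.0% above WT, with quartiles of 0.063 and 0.333. It was above 0 in 856 members (82.2%), against 44.8% of the 11625 loci on other chromosomes, whose median was -0.02 with quartiles of -0.15 and 0.10. The difference between both medians was 0.21. In the cumulative plot the curve of chromosome 2 is displaced to the right of that of the other chromosomes over its whole middle part.

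**Figure D1:**
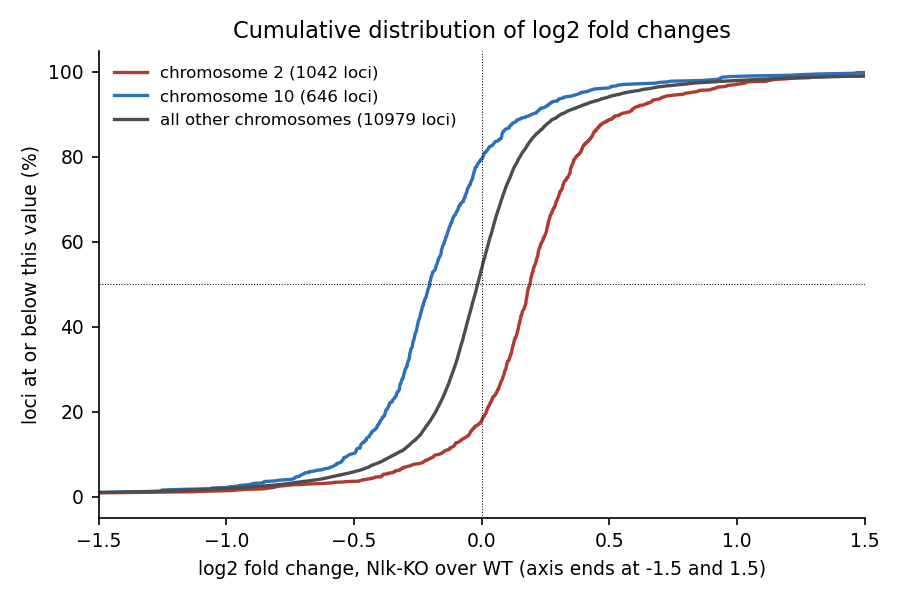
Cumulative share of loci (y, %) at or below each log2 fold change of Nlk-KO over WT (x), for 1042 loci of chromosome 2, 646 of chromosome 10 and 10979 of all other chromosomes. The chromosome 2 curve crosses 50% at 0.19 and the chromosome 10 curve at -0.20.

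The same offset was present in each knockout library. Measured as the median over members of the deviation from each locus's WT mean on the log2 scale, WT replicates 1, 2 and 3 were at -0.00058, 0.012 and -0.0067 and Nlk-KO replicates 1, 2 and 3 at 0.20, 0.18 and 0.19. The groups did not overlap, and the SD between libraries was 0.0096 in WT and 0.0090 in Nlk-KO (n = 3 each). In the same Nlk-KO libraries the loci of other chromosomes were at -0.015, -0.031 and -0.020. Between 79.7% and 82.3% of members were above their WT mean in each Nlk-KO library, and between 45.3% and 57.4% in each WT library.

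Seen locus by locus, 648 members were higher in all 3 Nlk-KO than in all 3 WT libraries, 87 were lower in all 3, and in 307 the genotypes overlapped. Over all loci tested, 25.1% were higher and 25.9% lower without overlap. With limma on log2(FPKM + 0.1), adjusted by Benjamini-Hochberg over the 12667 loci with a threshold of 0.05, 562 members (53.9%) were called higher, where the share over all loci was 18.6%. The same test called 61 members (5.85%) lower, where the share over all loci was 18.5%, and 419 were not called. Most of the higher calls were small: 230 were under 1.2-fold, 305 between 1.2-fold and 2-fold, and 27 over 2-fold (2.59% of members, where the share over all loci was 1.72%). Of the lower calls, 10 were over 2-fold (0.960% of members, where the share over all loci was 1.44%). The chromosome was picked for this shift, so nothing further is read from these counts.

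Among the 20 chromosomes, chromosome 2 had the highest median. The next were X at 0.05, 1 at 0.04 and 7 at 0.03, and chromosome 10 was the lowest at -0.20, followed by chromosomes 5 and 3 at -0.11 and -0.10. The spread within the chromosome was only slightly wider than elsewhere: the interquartile range was 0.27 on chromosome 2, 0.29 on chromosome 10 and 0.21 to 0.27 on the others. In all, 749 members (71.9%) lay within 0.25 of the chromosome 2 median, against 74.1% of other loci around the median of their own chromosome.

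**Figure D2:**
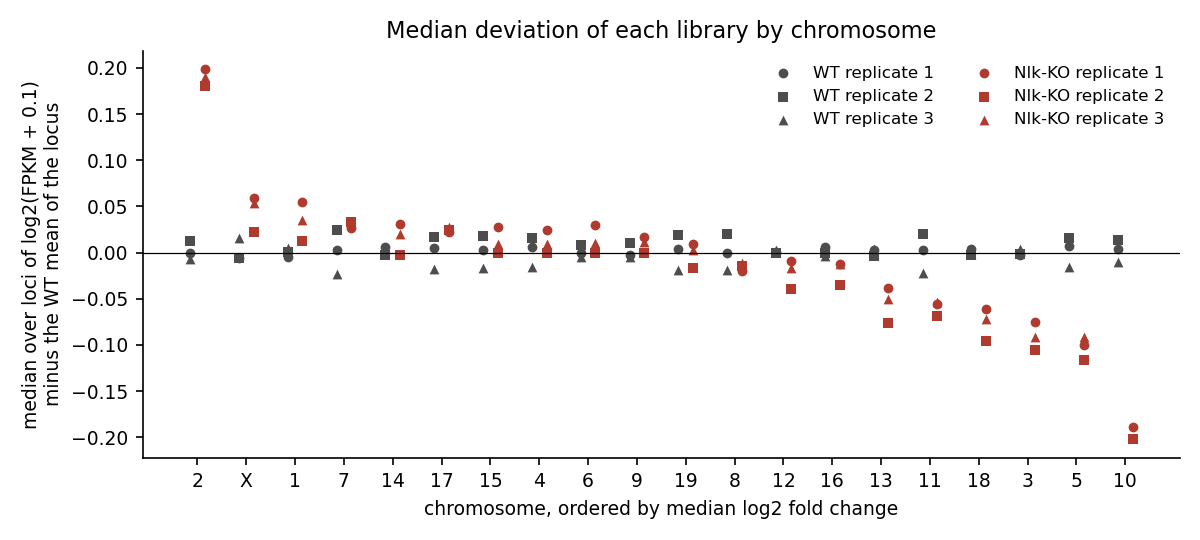
Median over the expressed loci of each chromosome (x, ordered by median log2 fold change) of the log2(FPKM + 0.1) value minus the WT mean of the locus (y), for the 3 WT libraries (grey) and the 3 Nlk-KO libraries (red). The Nlk-KO libraries sit at 0.18 to 0.20 on chromosome 2 and at -0.20 to -0.19 on chromosome 10.

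Along the chromosome the offset was smallest near the start. Members began at position 3118342 and ended at 181917753. In windows of 10 Mb, all 19 medians were above 0, and in all 19 the lowest Nlk-KO library median was above the highest WT library median, though from 10 to 20 Mb this held only by 0.0193 in Nlk-KO replicate 3 against 0.0184 in WT replicate 3. The windows from 0 to 10 Mb and from 10 to 20 Mb were lowest, at 0.11 (30 loci) and 0.07 (39 loci). The window from 40 to 50 Mb was highest, at 0.36, and holds only 16 loci. The others were between 0.15 and 0.25. A running median of 51 neighbouring loci gave the same picture without fixed borders: all 992 values were above 0, 991 of them also in each Nlk-KO library, the quartiles were 0.17 and 0.22, and the 33 values under 0.1 were centred no farther than position 14070332. Its lowest value was 0.07, centred on Ankrd16 at 11777752, where Nlk-KO replicate 3 was at -0.0074 and WT replicate 3 at 0.017, and its highest was 0.29, centred on Insm1 at 146221996.

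Split at 20 Mb, a border chosen after the values were seen, the 69 loci nearest the start had a median of 0.09, with 66.7% above 0, and the 973 others a median of 0.19, with 83.3% above 0. In the first stretch Nlk-KO replicates 1, 2 and 3 were at 0.10, 0.08 and 0.07, and in the remainder at 0.20, 0.19 and 0.20, so all 3 libraries were lower near the start. The 88 loci from 170 Mb to the end had a median of 0.16. The first stretch still holds genes far from 0, among them Itga8, Rsu1 and Ptpla.

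Every class of level and of span had a positive median. By mean level the medians were 0.17 for 90 loci at 0.5 to 1 FPKM, 0.16 for 212 at 1 to 5, 0.20 for 379 at 5 to 20, 0.19 for 301 at 20 to 100 and 0.20 for 60 above 100 FPKM, while loci of the same classes on other chromosomes had medians from -0.09 to -0.02, so that the difference was 0.18 to 0.26. In the lowest class the Nlk-KO libraries themselves were spread, at 0.04, 0.23 and 0.13. By span they were 0.18 under 10 kb, 0.18 from 10 to 50 kb, 0.20 from 50 to 200 kb and 0.24 above 200 kb. Protein-coding members had a median of 0.19, with 86.4% above 0, against -0.02 for protein-coding loci elsewhere. The 31 lncRNA loci were at 0.08, against -0.06 elsewhere. The 76 loci without a symbol did not share the offset to the same degree: their median was -0.06, with 44.7% above 0, against -0.12 for such loci on other chromosomes. The difference from other chromosomes was 0.21 for protein-coding loci, 0.14 for lncRNA and 0.06 for loci without a symbol, and these kinds were not tested against each other.

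Multi-subunit complexes, whose genes are spread over the genome, show the offset gene by gene, since the subunits on chromosome 2 can be set beside partners encoded elsewhere. Calls in these families stand beside the 53.9% of members and 18.6% of all loci called higher. The shares called lower were 5.85% and 18.5%. All 5 proteasome subunits on chromosome 2 (Psma7, Psmb7, Psmc3, Psmd5 and Psmd14) were called higher, with log2 fold changes from 0.17 to 0.33 and a median of 0.22, while the 32 subunits elsewhere had a median of 0.02 and 3 were called higher. Psmb7, a catalytic subunit, was at 224.9, 220.4 and 220.0 FPKM in WT and at 259.5, 239.6 and 251.8 FPKM in Nlk-KO libraries (log2 fold change 0.17, standard error 0.042). Psmd14, the deubiquitinase of the proteasome lid, was at 94.2, 91.1 and 97.5 against 123.6, 111.0 and 121.0 FPKM (0.33, standard error 0.050). The genotypes did not overlap for either subunit.

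The translation initiation factors Eif2s2, Eif3j1, Eif3m and Eif6 were called higher at 0.29 to 0.32, whereas the median of 47 genes of these families elsewhere was -0.02. Eif2ak4, a kinase that phosphorylates an initiation factor and was matched by its symbol, was at -0.09 and was not called. Eif3m was at 116.5, 114.5 and 114.8 FPKM in WT and 147.1, 139.1 and 146.6 FPKM in Nlk-KO libraries, with no overlap. Both complex I subunits, Ndufa8 and Ndufs3, were called higher at 0.24 and 0.14, against a median of -0.07 for 34 subunits elsewhere, of which 9 were called lower. Of 4 nucleoporins, Nup35, Nup160 and Nup188 were called higher at 0.18 to 0.27 and Nup214 was at 0.02, against a median of -0.10 elsewhere with 8 of 16 called lower. The Rab GTPases Rab14 and Rab22a were called higher at 0.27 and 0.35, and the kinesins Kif3b and Kif18a at 0.21 and 0.26, while Kif5c was at -0.05. In each of these families the median of the chromosome 2 members was above that of the members elsewhere. The chromosome was picked because its loci were raised, so this is a description and not a test.

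Cytosolic ribosomal proteins had the lowest chromosome 2 median of the 8 families, 0.12. Rpl7a, Rpl12, Rpl35 and Rps21 were at 0.16, 0.21, 0.02 and 0.09, none of them called, against a median of -0.01 for the 70 others. Rpl12 was at 1561, 1512 and 1614 FPKM in WT and at 1805, 1789 and 1819 FPKM in Nlk-KO libraries, with no overlap, and Rpl35 at 1732, 1830 and 1778 against 1802, 1750 and 1862 FPKM, with overlap. The mitochondrial ribosomal proteins Mrps5 and Mrpl41 were called higher at 0.21 and 0.30, and Mrps2 and Mrps26 were at 0.13 and -0.05, against a median of -0.08 for 70 elsewhere.

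**Figure D3:**
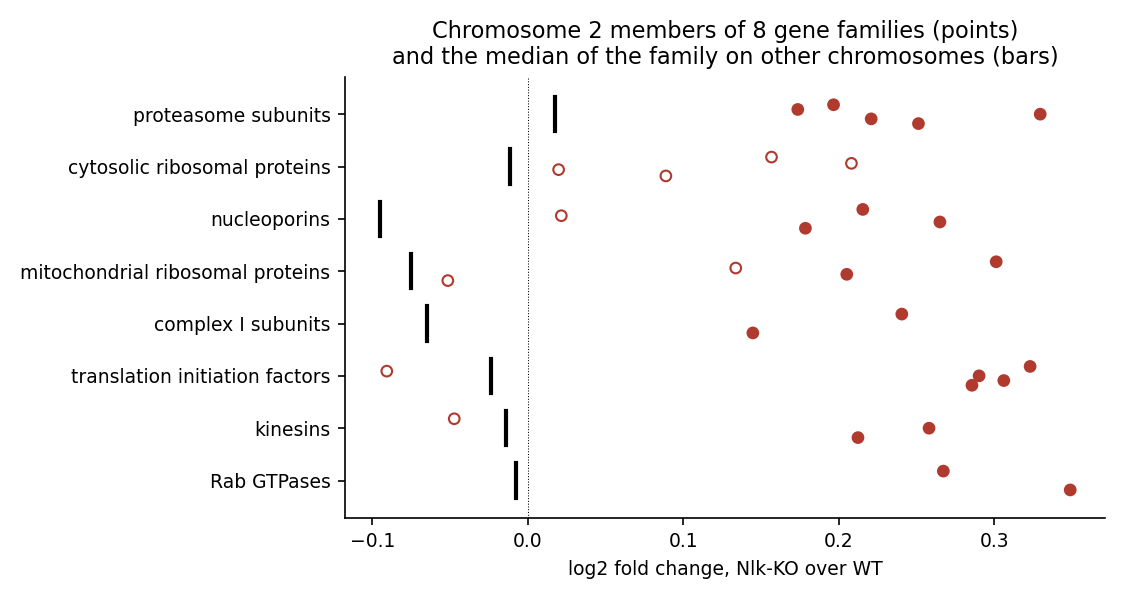
Log2 fold change of Nlk-KO over WT (x) of the chromosome 2 members of 8 gene families (points, filled where called by limma at an adjusted p under 0.05) and the median of each family's members on other chromosomes (black bars). The points sit to the right of the bar in every family except for Eif2ak4 among the translation initiation factors and Kif5c among the kinesins.

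The offset itself is best seen in highly expressed genes close to the median. Rpn2, a subunit of the oligosaccharyltransferase of the endoplasmic reticulum, was at 184.6, 187.6 and 178.9 FPKM in WT and 212.1, 202.4 and 215.3 FPKM in Nlk-KO libraries (log2 fold change 0.19, standard error 0.040). Cse1l, which exports importin alpha from the nucleus, was at 78.0, 77.9 and 74.3 against 87.2, 84.5 and 90.7 FPKM (0.19, standard error 0.039). Ube2v1, a ubiquitin-conjugating enzyme variant, was at 89.7, 90.4 and 86.7 against 102.5, 99.0 and 104.6 FPKM (0.20, standard error 0.036). Each of these, and Hypk, Pigt and Slmo2 beside them, was higher in every Nlk-KO library than in any WT library.

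To find the genes that depart from the chromosome, each library's chromosome median was first subtracted from its values and the test was repeated. Of the 562 members called higher before, 203 were still called higher and 359 were not. The centred test called 169 members lower, of which 108 had not been called before. No share over all loci was taken for these counts, so nothing is read from them. A locus was counted as departing where it passed this centred test and differed from the chromosome by at least 0.5 on the log2 scale. By this measure 60 members (5.76%) lay above the chromosome, where the share over all loci, each centred on its own chromosome, was 5.16%, and 53 (5.09%) lay below it, where the share was 4.24%. Departures of at least 1 were found in 15 members above and 18 below, where the shares over all loci were 1.68% and 1.43%. These shares are near the background. Departing loci were weakly expressed on the whole, with a median of 3.44 FPKM above and 2.86 FPKM below, against 13.2 FPKM for the other members, and 38 of the 60 and 35 of the 53 were under 5 FPKM. Loci without a symbol made up 1 of the 60 and 12 of the 53.

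Among single-gene loci that averaged 5 FPKM or more without overlap between genotypes, Myl9 stood highest above the chromosome, at 1.94, 2.42 and 1.95 FPKM in WT and 26.4, 25.3 and 26.6 FPKM in Nlk-KO libraries (log2 fold change 3.58, standard error 0.085). Every Nlk-KO library was far above every WT library, and in bulk RNA more cells with a transcript and more transcript per cell cannot be told apart. Dstn, destrin, which severs and depolymerizes actin filaments, was at 136.6, 136.1 and 136.5 against 341.9, 318.0 and 344.4 FPKM (1.29, standard error 0.042), and lay far outside the spread of either group. Gsn, gelsolin, another actin-severing protein, was at 16.8, 16.7 and 14.7 against 25.1, 24.2 and 24.7 FPKM (0.62, standard error 0.055), a smaller rise that did not reach the limit for a departure.

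Gene lists were read against the 53.9% of members and 18.6% of all loci called higher, and the 5.85% and 18.5% called lower. In these lists 10 loci that carry several symbols stand behind 14 list entries. Of 22 contractile and cytoskeletal members, 18 (81.8%) were called higher, 1 lower and 3 not called, with a median of 0.30, where the median over all members was 0.19 and over all loci tested -0.0099. Besides those named, Mapre1 and Fmnl2, which act on microtubule ends and on actin, rose by 0.54 and 0.45 and Vim, vimentin, by 0.39. Kif5c, Nebl and Sptan1 were not called. Cdh22, a cadherin, was called lower, at 5.16, 5.78 and 4.97 against 3.42, 3.24 and 3.52 FPKM. Of 3 smooth muscle markers, which summed to 0.829 to 1.17 FPKM in WT and 12.7 to 12.8 FPKM in Nlk-KO libraries, only Acta2 moved with Myl9. Acta2 went from 0.0993 to 0.239 FPKM up to 11.7 to 11.9 FPKM, while Tagln was at 0.713 to 0.954 FPKM in both genotypes and Myh11 near 0. Their part in the result was not tested.

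The list of matrix, adhesion and secreted genes, which also holds receptors and enzymes of the secretory pathway, had the highest median of the gene lists. Of 30 members, 18 (60%) were called higher, where the shares were 53.9% of all members and 18.6% of all loci, 1 was called lower and 11 were not called. The median was 0.41 with quartiles of 0.08 and 0.82, and 9 departed above, where 5.76% of members and 5.16% of all loci did. Receptors, enzymes and a Notch ligand were among those that departed. The listed matrix genes Fbn1, Lama5, Matn4 and Col9a3, at 0.45, 0.21, 0.06 and 0.59, did not, and of these only Fbn1 was called higher. Fbln7, a matrix glycoprotein, and Adamtsl2, a secreted protein, departed above but are not on this list. Col20a1, 1 of the 18, was counted through a locus joint with Arfgap1. Spint1, a Kunitz-type inhibitor of serine proteases, was at 3.98, 3.80 and 4.22 FPKM in WT and 12.8, 11.3 and 12.3 FPKM in Nlk-KO libraries (1.58, standard error 0.062). Eng, endoglin, a coreceptor for TGF-beta ligands, was at 2.91, 2.73 and 2.62 against 8.04, 7.95 and 8.48 FPKM (1.53, standard error 0.058), its locus overlapping that of Fpgs. The genotypes did not overlap in either gene.

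Itga8, an integrin alpha chain, was at 1.88, 2.01 and 2.29 against 7.95, 7.42 and 7.82 FPKM (1.86, standard error 0.078). Pltp, the phospholipid transfer protein, was at 1.53, 1.56 and 1.59 against 4.26, 4.32 and 3.96 FPKM (1.36, standard error 0.065), from a locus shared with Ctsa and Neurl2. Acvr1, a BMP type I receptor, Chst14, a dermatan sulfotransferase, Ptgis, prostacyclin synthase, and Jag1, a Notch ligand, departed above as well, at 0.72, 0.85, 1.11 and 1.13. The integrins Itga6 and Itgav rose by 0.34 and 0.64 without departing. Egfl7, Olfm1, Edem2 and Procr, also secreted, adhesion or secretory pathway proteins, were between -0.05 and -0.0082 and were not called. Fibroblast markers were low in both groups, with only Pdgfra of 5 above 0.5 FPKM and a sum of 0.798 to 1.04 in WT and 1.91 to 2.06 FPKM in Nlk-KO libraries. Their part in the result was not tested.

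The remaining genes among the 12 highest were of varied function. Rsu1 went from 50.3, 55.5 and 54.1 FPKM in WT to 109.7, 109.2 and 109.1 FPKM in Nlk-KO libraries (1.04, standard error 0.042). Ptpla, a dehydratase of very long chain fatty acid synthesis, was at 61.8, 64.2 and 66.2 against 121.5, 113.1 and 122.4 FPKM (0.89, standard error 0.044). Both lie in the first 20 Mb, where the running median was lowest.

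Tshz2, a zinc finger transcription factor, rose by 1.12. Adamtsl2, a secreted protein of the ADAMTS-like family, Fkbp7, a prolyl isomerase of the endoplasmic reticulum, and 5430417L22Rik rose by 1.00, 0.91 and 0.96. Fkbp7 was also counted in the list of matrix, adhesion and secreted genes. For 5430417L22Rik, whose promoter holds a CArG box, the values were 6.89, 6.89 and 6.71 against 13.58, 13.54 and 13.04 FPKM. Mir6340 was at 70.5, 88.6 and 164.1 against 190.1, 209.9 and 283.2 FPKM (1.15, standard error 0.30) and did not pass the centred test. Its locus overlaps that of Rab22a, and its WT libraries were spread widely.

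**Figure D4:**
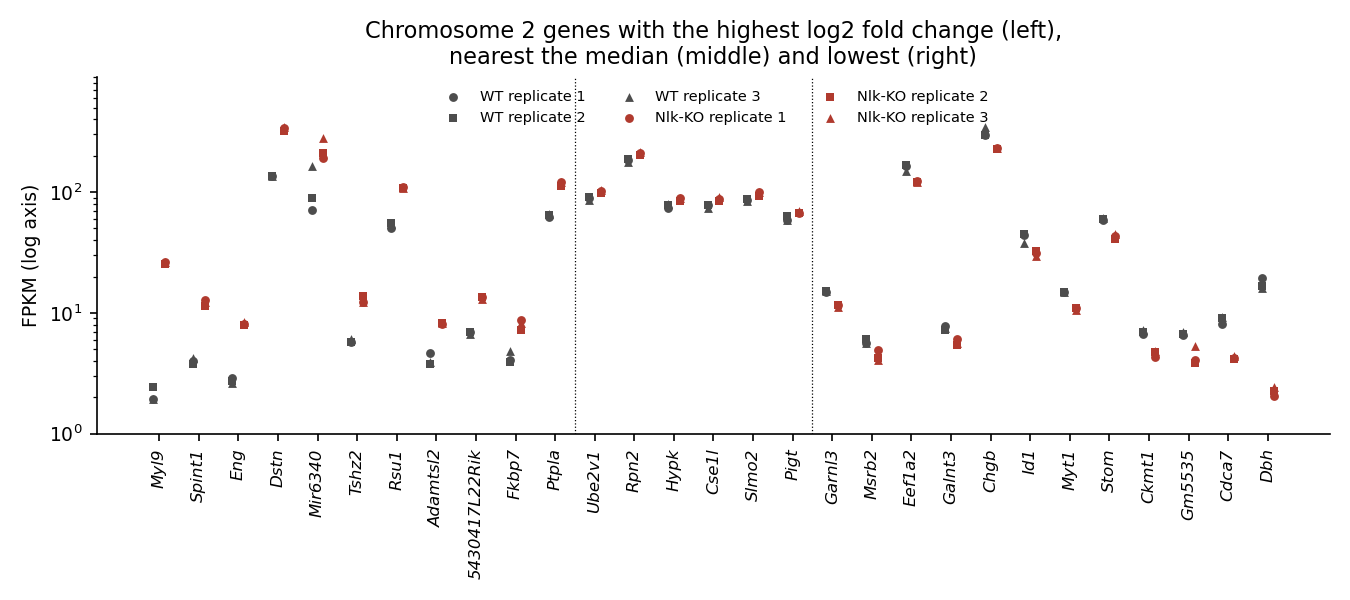
FPKM on a log axis (y) of each of the 3 WT (grey) and 3 Nlk-KO (red) libraries for 11 of the 12 chromosome 2 genes with the highest log2 fold change (left), the 6 nearest the chromosome median (middle) and the 12 lowest (right). Myl9 sits at 1.94 to 2.42 FPKM in WT and 25.3 to 26.6 FPKM in Nlk-KO libraries, and Dbh at 16.2 to 19.5 and 2.04 to 2.43 FPKM.

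Dbh stood lowest below the chromosome. It was at 19.5, 16.7 and 16.2 FPKM in WT and at 2.04, 2.28 and 2.43 FPKM in Nlk-KO libraries (log2 fold change -2.90, standard error 0.090). Chgb, chromogranin B of dense-core secretory granules, was at 298.1, 298.4 and 344.6 against 233.6, 229.6 and 231.9 FPKM (-0.43, standard error 0.062). Neither group of libraries overlapped the other in these genes.

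Of 23 members for neuronal secretion, synapses and channels, 13 (56.5%) were called higher, against 53.9% of all members and 18.6% of all loci, 6 lower and 4 not called. The median of 0.21 was close to that of all members, but the lower quartile was -0.22, and the 6 that were called lower all departed below: Dbh, Nrsn2, Scn9a, Rims4, Chgb and Sema6d. The shares called lower were 5.85% of all members and 18.5% of all loci, and those departing below 5.09% and 4.24%. Scn9a, a voltage-gated sodium channel, was at 4.54, 4.43 and 4.92 FPKM in WT and 1.42, 1.52 and 1.32 FPKM in Nlk-KO (-1.64, standard error 0.077). Rims4, of the active zone RIM family, was at 6.15, 6.60 and 5.06 against 3.51, 3.03 and 3.38 FPKM (-0.82, standard error 0.11), and Nrsn2, neurensin, at 1.19, 1.61 and 1.28 against 0.270, 0.322 and 0.168 FPKM (-2.06, standard error 0.22). Nlk-KO libraries were below WT libraries throughout.

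Other members of this list were spread on both sides of the chromosome median. Camk1d, a calcium/calmodulin-dependent kinase, was at 13.2, 13.9 and 14.0 against 16.6, 15.4 and 15.7 FPKM (0.21, standard error 0.042). Cacna1b, a calcium channel, and Stmn3, a microtubule-destabilizing stathmin, rose by 0.31 and 0.34. Plcb1, a phospholipase C, departed above at 0.70, Ntng2, a netrin G, and Slc12a5, a chloride transporter, rose by 0.65 and 0.50, Olfm1 was at -0.05 and was not called, and Snap25, a SNARE protein, was at 0.02 and was not called. Of the sympathoadrenal markers, Th, which moved with Dbh, was at 4.15 to 4.21 FPKM in WT and 0.323 to 0.586 FPKM in Nlk-KO libraries, while Phox2a, Hand2 and Mycn were at 123 to 148, 360 to 382 and 16.3 to 18.7 FPKM in WT and 148 to 152, 392 to 406 and 16.7 to 18.4 FPKM in Nlk-KO. The 8 markers summed to 592.6 to 646.8 FPKM in WT and 584.6 to 596.7 FPKM in Nlk-KO libraries. Their part in the result was not tested.

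The other genes among the 12 lowest were not of one kind. Cdca7, a cell division gene that works in chromatin remodelling with Hells, was at 8.11, 9.09 and 9.21 FPKM in WT and 4.24, 4.14 and 4.38 FPKM in Nlk-KO libraries (-1.03, standard error 0.060). Stom, stomatin, a membrane protein, was at 59.2, 59.7 and 60.9 against 43.2, 40.8 and 45.0 FPKM (-0.48, standard error 0.041). Both were lower in every Nlk-KO library.

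Id1, an inhibitor of basic helix-loop-helix factors, was at 43.9, 44.8 and 37.7 against 31.2, 32.7 and 29.4 FPKM (-0.43, standard error 0.072). Eef1a2, the elongation factor isoform of neurons and muscle, was at 163.8, 166.6 and 149.2 against 122.7, 121.6 and 120.9 FPKM (-0.39, standard error 0.047). Ckmt1, the mitochondrial creatine kinase, Myt1, a zinc finger factor of neural cells, Galnt3, which starts mucin-type O-glycans, and Msrb2, a methionine sulfoxide reductase, fell by 0.58, 0.45, 0.39 and 0.39 on the log2 scale, as did Garnl3 by 0.39 and the lncRNA Gm5535 by 0.61. All 12 departed below.

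Several gene lists had a median close to that of the chromosome. Of 36 members for lysosomes, endosomes and autophagy, 25 (69.4%) were called higher, against 53.9% of all members and 18.6% of all loci, 0 lower and 11 not called, with a median of 0.21 and quartiles of 0.12 and 0.29. Snap23, a SNARE, and Cst3, cystatin C, an inhibitor of cathepsins, rose by 0.51 and 0.41, Ambra1, a regulator of autophagy, by 0.17, and Cd82, a tetraspanin at 0.456, 0.475 and 0.436 FPKM in WT against 1.76, 1.39 and 1.70 FPKM in Nlk-KO, by 1.62. Stx16, a SNARE of the trans-Golgi network, was at -0.04 and overlapped between genotypes. Cd82 was the only member of this group to depart.

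Of 23 members for the proteasome and ubiquitin, 18 (78.3%) were called higher, against 53.9% of all members and 18.6% of all loci, 0 lower and 5 not called, with a median of 0.22 and none departing. Usp8, a deubiquitinase of endosomes, was at 29.8, 29.4 and 29.9 against 35.0, 33.2 and 33.3 FPKM (0.19, standard error 0.033), and Ubac1 and Usp20 were at -0.07 and -0.14 without being called. Of 39 members for RNA binding, splicing and translation, 23 (59.0%) were called higher, 1 (Eef1a2) lower and 15 not called, with a median of 0.21. Rbm39, a splicing factor, at 75.9, 71.3 and 76.4 against 71.6, 70.5 and 69.6 FPKM, was at -0.08 and overlapped.

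Of 34 members for the cell cycle and DNA replication, 22 (64.7%) were called higher, against 53.9% of all members and 18.6% of all loci, 1 (Cdca7) lower and 11 not called, with a median of 0.19. 1 locus counts as 2 of these members. Nek6, a mitotic kinase, rose by 0.52 and Nusap1, a spindle protein, by 0.18, whereas Mcm8 and Cep250 were at -0.03 and -0.17 and were not called. Of 16 members for apoptosis and survival, 12 (75%) were called higher, 1 lower and 3 not called, with a median of 0.23. Bmf, a BH3-only protein that promotes apoptosis, was at 1.85, 1.86 and 1.77 FPKM in WT and 4.39, 4.19 and 4.27 FPKM in Nlk-KO (1.19, standard error 0.059), the tyrosine kinases Src and Abl1 rose by 0.52 and 0.51, and Trib3, a pseudokinase of the stress response, fell by 0.23.

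Mitochondrial and metabolic genes had the lowest median of the gene lists. Of 29 members, 12 (41.4%) were called higher, against 53.9% of all members and 18.6% of all loci, 3 lower and 14 not called, with a median of 0.13. Sqrdl, sulfide quinone reductase, was at 0.695, 0.827 and 0.639 FPKM in WT and 1.47, 1.40 and 1.81 FPKM in Nlk-KO (1.01, standard error 0.14), while Ckmt1 and Tgm2, a transglutaminase, fell by 0.58 and 0.37. Cox4i2, a cytochrome oxidase subunit isoform, was at -0.31, was not called against WT and departed below in the centred test.

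Of 27 developmental transcription factors and their regulators, 12 (44.4%) were called higher, against 53.9% of all members and 18.6% of all loci, 3 lower and 12 not called, with a median of 0.17 and 3 departing on each side. The shares departing above were 5.76% of all members and 5.16% of all loci, and those departing below 5.09% and 4.24%. Nfatc2, a calcium-regulated factor, was at 0.750, 1.06 and 0.948 FPKM in WT and 0.227, 0.312 and 0.318 FPKM in Nlk-KO (-1.40, standard error 0.20). Sp3 rose by 0.19, as the chromosome did, and Cebpb, at 17.6, 17.2 and 12.6 against 18.3, 18.7 and 16.7 FPKM, had the same fold change but was not called, WT replicate 3 being low.

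Of 8 imprinted genes, which are expressed from the allele of one parent, 4 (50%) were called higher, against 53.9% of all members and 18.6% of all loci, 0 lower and 4 not called, with a median of 0.22 and none departing. L3mbtl1, 1 of the 4 not called, was measured only as a locus joint with Srsf6, at 0.05, so its value cannot be read as that of the imprinted gene. Gnas, the stimulatory G protein alpha subunit, was at 773.2, 781.8 and 712.2 FPKM in WT and 1189, 1171 and 1161 FPKM in Nlk-KO libraries (0.64, standard error 0.062), the largest rise of the group. H13, a signal peptide peptidase, Blcap and Mcts2 rose by 0.46, 0.35 and 0.19. Nnat, which lies within Blcap, was at 2.00, 1.58 and 1.93 against 1.63, 2.40 and 1.77 FPKM and overlapped, as did Nespas, the antisense transcript of Gnas. No source used here says that strand was used in counting, so reads of such overlapping pairs cannot be told apart.

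Between adjacent non-overlapping members, centred log2 fold changes had a Spearman correlation of 0.05 and a Pearson correlation of 0.02 over 761 pairs of loci, which share libraries. Beside Dbh (chr2:27165506-27183204), its neighbour Sardh, sarcosine dehydrogenase, begins 5187 bases farther on and rose by 0.75, the antisense gene Dbhos was at -0.06, and Adamtsl2 before it rose by 1.00. Gsn, at 0.62, and Stom, at -0.48, lie 6086 bases apart, and Spint1, at 1.58, is followed by Rhov, an atypical small GTPase, at 0.96. Adamtsl2, Dbh and Sardh all departed, as did both Spint1 and Rhov. Other departing loci next to each other included that of Cd59a and Cd59b, at 1.22, with D430041D05Rik, at 1.61, and below the chromosome Gca with Fign, both at -0.34, and Csrnp3 with Galnt3, at -0.53 and -0.39. Trp53i11 and Tspan18, 1 base apart in the annotation, rose by 0.85 and 0.67.

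Some loci below 5 FPKM also stood far from the chromosome, and those named here were chosen after their values were seen. Fbln7, fibulin 7, a secreted matrix glycoprotein, was listed at 0.00136, 0 and 0 FPKM in WT and was at 6.92, 8.15 and 7.19 FPKM in Nlk-KO libraries. No fold is given against values at 0. Nacc2, a transcriptional repressor with a BTB domain, was at 0.177, 0.163 and 0.147 against 2.90, 2.82 and 2.80 FPKM (log2 fold change on the log2(FPKM + 0.1) scale 3.49, standard error 0.12), and Fmn1, formin 1, which nucleates actin filaments, at 0.764, 0.778 and 0.807 against 4.42, 3.91 and 3.79 FPKM (2.23, standard error 0.087). Gbgt1, a glycosyltransferase, was at 1.01, 0.935 and 0.946 against 0.0576, 0.0730 and 0.0313 FPKM (-2.80, standard error 0.22). The genotypes did not overlap in any of these 4 loci. Among miRNA loci, Mir199b and Mir695 averaged above 5 FPKM, each through a single library. Mir199b was listed at 0 except in Nlk-KO replicate 3, at 44.3 FPKM, and Mir695 at 0 except in WT replicate 1, at 66.1 FPKM. Mir669i was listed at 0 in WT replicate 2 and all Nlk-KO libraries. The genotypes overlapped in these 3 loci, and no fold is given for them.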

How the data were processed

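RNA of 3 WT and 3 Nlk-KO N2a libraries was extracted with RNeasy columns, selected by poly(A) and sequenced. Per the labels and methods, reads were aligned to GRCm38 (mm10) with TopHat2 (2.1.0), and Cufflinks (2.2.1), Cuffnorm and Cuffdiff gave the FPKM per locus and library that the authors deposited. How libraries were scaled against each other, and on which gene models, is not given in the sources used here. Further columns hold the authors' group means, log2 fold changes, p-values and adjusted p-values and were not used. Columns were assigned to samples by their names, leaving 0 without a sample.

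The 12667 loci averaging 0.5 FPKM or more were analysed as log2(FPKM + 0.1) in limma (3.58.1, under R 4.3.3) with an intensity-dependent prior variance, Benjamini-Hochberg adjustment over all of them and a threshold of 0.05. Fold changes of low loci are understated on this scale. For departures, the median deviation of each library on each chromosome was subtracted before a repeat of the fit. Both fits were tested on simulated data. Total reads per library are unknown. For 3 libraries against 3 an exact permutation test of a single locus has a smallest p of 0.1 and was not run.

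Of 26 symbols stored as dates, 23 were resolved by locus. Promoters came from RefSeq (GRCm38.p6), the first listed for each gene, matched by symbol or synonym. The members, gene lists and tests were chosen with earlier results of these data known. Genes were named by rule: among single-gene loci of 5 FPKM or more without overlap between genotypes, the 12 highest and 12 lowest, then 6 of 50 FPKM or more nearest the median, and for each list up to 4 farthest from and 2 nearest to the median. Genes outside this rule were chosen after their values were seen. These were members of the gene families, neighbours of departing loci, loci under 5 FPKM and further miRNA loci. Genes with a CArG box and others named within a list were also among them. The alternatives were other pseudocounts, filters, scalings and prior variances, a fold threshold, the replicate number as a block, and leaving out each library. Some genes that the rule picks are left out here.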

Additional observations from a re-analysis of the deposited data

How the results depend on the processing

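The median log2 fold change of the chromosome 2 loci was positive under every alternative tried. It was 0.1732 with a pseudocount of 1 FPKM, 0.1521 without a filter, 0.2097 after rescaling each library by the median of the other chromosomes, and 0.3904 after scaling libraries to the same sum of FPKM, a scaling that moved the median of all loci from -0.0099 to 0.1921. The difference from the median of other loci was 0.1936 with a pseudocount of 1 FPKM and 0.1582 without a filter. With the same sum of FPKM, 5 loci were called higher and 5 lower, and 68 of the 70 calls among named genes ended, although none changed sign. That sum ran from 2506293 to 8667701 FPKM among the Nlk-KO libraries alone, and loci without a symbol made up 77.31% to 91.45% of it over all libraries. Against a fold of 1.2 (limma's treat), 120 were called higher and 20 lower. At a minimum of 5 FPKM, 29 were called lower and 39 departed from the chromosome, since fewer loci were tested, and all 3 remaining classes of level had a positive median. With a departure of at least 1, the count was 33. Over the fits without 1 library, the median ran from 0.1844 to 0.1947, its difference from other loci from 0.2085 to 0.2136, loci called higher from 476 to 522, called lower from 51 to 66 and departing from 104 to 113, and all 19 windows of 10 Mb stayed above 0. The calls among named genes were not checked against the fold of 1.2. At a minimum of 5 FPKM only 57 of the 70 could be checked. Under the other alternatives, apart from the same sum of FPKM, at most 8 of the 70 ended, the 8 being without WT replicate 1.

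Same-numbered WT and Nlk-KO libraries showed no clear common deviation (correlations of 0.037, 0.060 and -0.13), where differently numbered ones ran from -0.189 to 0.188. No pairing by number was detected, but 3 libraries in a group are too few to exclude it. With the replicate number as a block, 511 chromosome 2 loci were called higher and 62 lower, 108 departed, and the median stayed at 0.1893.

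Neither read totals nor clone identities are known, so the precision of loci under 5 FPKM, which include 73 of the 113 departing loci, cannot be given from counting, and genotype cannot be told apart from the clones sequenced.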
